A study of Mus musculus with 4 samples.

Results

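The genes described here are 7 genes of FGF signalling to ERK in mouse embryonic stem cells: the ligands Fgf4 and Fgf5, the receptors Fgfr1 and Fgfr2, and the ERK response genes Etv4, Etv5 and Dusp6. They were chosen by their known roles, but with earlier results of these data known, out of 21887 protein-coding genes. A peak was counted for a gene when its centre lay in the gene body or within 50 kb of it (mm10 coordinates), and 63 of the 29255 peaks of the series met this rule. The peaks came from ChIP-exo, in which an exonuclease digests the isolated DNA from its ends until it meets the bound protein, which narrows a binding site to a few bases. All 4 libraries came from the D3 line of mouse embryonic stem cells, with 1 library in each group. Halo-Sox2M is Sox2 fused to HaloTag, an enzyme-derived tag that attaches itself covalently to HaloLink resin, and its label names M47G, F50 and M51G, which lie in the DNA-binding HMG box; the label gives no replacing residue for F50. Halo-Sox2D is the same fusion cut down to Sox2 residues 1 to 120, a stretch that includes the HMG box but not the activation region. Halo-Sox2 is the unchanged fusion, and these fusions were isolated on HaloLink resin. They are set against endogenous Sox2, which was isolated with an antibody, so resin and antibody differ together with the tag. The labels do not say how the fusions were expressed, nor whether the cells that held them still made their own Sox2.

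Embryonic stem cells make Fgf4, which acts through Fgfr1 and Fgfr2 and the Ras, Raf and Mek kinases to activate ERK, and this signal readies the cells to leave the naive pluripotent state. ERK in turn switches on Etv4 and Etv5, transcription factors of the Ets family, and Dusp6, a phosphatase that removes the activating phosphates from ERK and so damps the signal. Fgf4 is a textbook target of Sox2: an enhancer in the 3' untranslated part of its last exon is bound by Sox2 together with Oct4. Fgf5 is a ligand that is low in naive cells and high in the post-implantation epiblast.

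The lists held 1711 peaks for Halo-Sox2M, 13833 for Halo-Sox2D, 6558 for Halo-Sox2 and 7153 for endogenous Sox2, each peak between 1 and 20 bp wide. They carry no score or read number, so depth is unknown, and the length of a list cannot be told apart from depth or calling threshold. Because each group is 1 library, differences between groups could not be set against replicates, and no p-value is given. Intervals are at 95% and reflect counting error alone; peaks that adjoin are not independent of each other. None of the 63 peaks lay in a 100-kb bin with 15 or more peaks of any library, so such dense stretches of the lists did not enter the counts. Whether a peak lay in a repeat outside these bins was not examined.

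Of the 7 genes, 6 had peaks of Halo-Sox2D, of Halo-Sox2 and of endogenous Sox2, and Fgfr2 alone had peaks of Halo-Sox2M. The background, the share of protein-coding genes with a peak by the same rule, was 6.37% for Halo-Sox2M, 57.7% for Halo-Sox2D, 32.3% for Halo-Sox2 and 27.4% for endogenous Sox2. One Halo-Sox2M gene among 7 is thus close to what the background gives, and 6 of 7 in the other libraries is a larger share than over all genes. The 63 peaks were 2 of Halo-Sox2M (Poisson interval 0.242 to 7.22), 31 of Halo-Sox2D (21.1 to 44.0), 13 of Halo-Sox2 (6.92 to 22.2) and 17 of endogenous Sox2 (9.90 to 27.2). The median number of peaks per gene was 0 for Halo-Sox2M, 3 for Halo-Sox2D, 2 for Halo-Sox2 and 3 for endogenous Sox2, against 0, 1, 0 and 0 over all protein-coding genes. By length, the 7 windows together (0.966 Mb) held 2.07 Halo-Sox2M peaks per Mb (0.251 to 7.48), 32.1 Halo-Sox2D peaks (21.8 to 45.5), 13.5 Halo-Sox2 peaks (7.16 to 23.0) and 17.6 endogenous Sox2 peaks (10.3 to 28.2). The windows of all protein-coding genes held 0.549, 7.05, 2.91 and 3.12 peaks per Mb in the same order of libraries. For Halo-Sox2D, Halo-Sox2 and endogenous Sox2 the density over all genes lay below the interval of the 7 genes, and for Halo-Sox2M it lay within it. Because the genes were chosen with earlier results of these data known, the intervals describe these genes and test nothing.

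**Figure D1:**
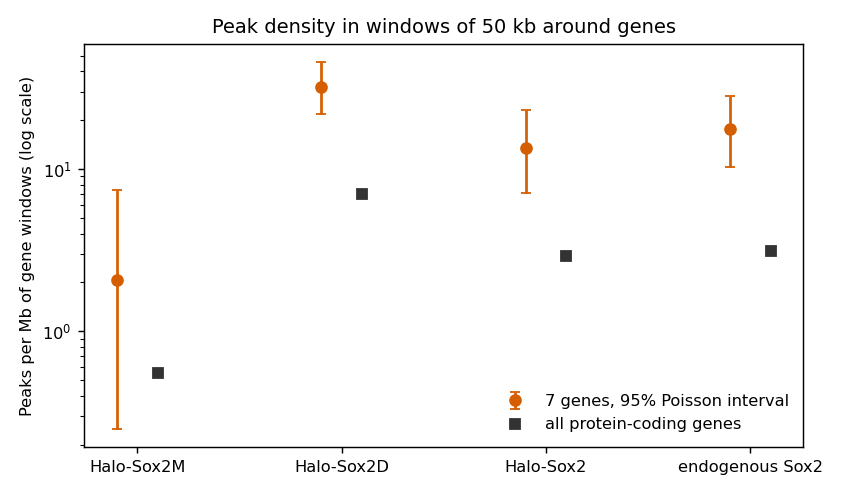
Peaks per Mb of gene windows (log axis) in each of the 4 libraries, for the 7 FGF and ERK genes (circles, with 95% Poisson intervals for counting error) and for all protein-coding genes (squares). The circles of Halo-Sox2D (32.1), Halo-Sox2 (13.5) and endogenous Sox2 (17.6) lie above their squares (7.05, 2.91 and 3.12), with intervals that do not reach them.

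Among the genes, Fgf4 and Etv5 had the highest density over the 4 libraries, with 11.6 peaks per 100 kb of window (5.97 to 20.2) and 11.4 (6.74 to 18.0). Fgfr1 followed with 7.65 (3.95 to 13.4), Dusp6 with 5.75 (2.11 to 12.5), Etv4 with 5.19 (1.91 to 11.3) and Fgfr2 with 4.40 (2.01 to 8.36). The intervals of all these neighbours in the order overlap. Of the 12 peaks counted for Fgf4, 10 were nearer to Fgf3 or Fgf15, as described below. Fgf5 had no peak in any library, a state shared by 31.1% of protein-coding genes. Of the 63 peaks, 41 lay inside the body of the gene they were counted for. Inside were 2 of 2 Halo-Sox2M peaks, 21 of 31 Halo-Sox2D peaks (67.7%, Wilson interval 50.1 to 81.4%), 9 of 13 Halo-Sox2 peaks (69.2%, 42.4 to 87.3%) and 9 of 17 endogenous Sox2 peaks (52.9%, 31.0 to 73.8%). Inside any protein-coding gene, neighbours included, lay 23 of the 31 Halo-Sox2D peaks (74.2%, 56.8 to 86.3%), while the counts of the other libraries were the same. Of all peaks in windows of protein-coding genes, 37.1% of Halo-Sox2M, 58.2% of Halo-Sox2D, 54.8% of Halo-Sox2 and 52.7% of endogenous Sox2 peaks lay inside a protein-coding gene. Each of these shares lies within the interval of the 7 genes (34.2 to 100% for Halo-Sox2M).

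**Figure D2:**
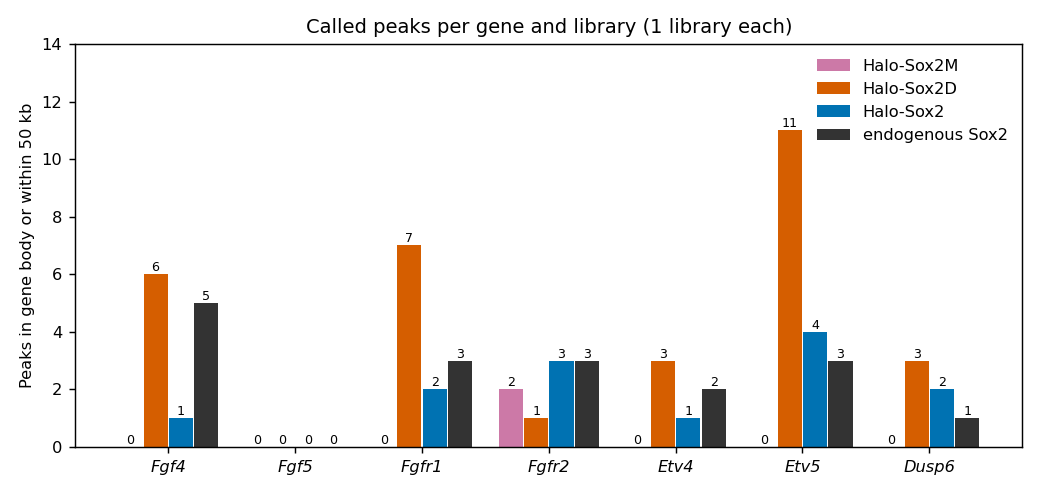
Number of peaks in the gene body or within 50 kb of it (vertical axis) for each of the 7 genes, with a bar for each library (1 library each, no error bar). Halo-Sox2D has the tallest bar at Fgf4 (6), Fgfr1 (7), Etv4 (3), Etv5 (11) and Dusp6 (3), Halo-Sox2M has a bar at Fgfr2 (2) alone, and Fgf5 has none.

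The ligand gene Fgf4 (mm10 chromosome 7, 144861386 to 144865245, plus strand) had 0 Halo-Sox2M, 6 Halo-Sox2D, 1 Halo-Sox2 and 5 endogenous Sox2 peaks. Inside the gene there was 1 peak, of Halo-Sox2D, at 144864512 to 144864526. It lay 3.13 kb past the start and 0.726 kb before the end of the gene, in its 3' part, where the known enhancer is. No Halo-Sox2M, Halo-Sox2 or endogenous Sox2 peak was called there. The lists hold no value below their threshold, so that does not show that these proteins were absent from the enhancer. Whether the peak covers the paired Sox2 and Oct4 element was not examined, because sequence of this stretch was not used here. The nearest endogenous Sox2 peak (144858196 to 144858202) lay 3.19 kb upstream of the start.

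The one place at Fgf4 with peaks of several libraries lay past the gene. Here and below, a place is a run of peaks whose centres follow each other within 500 bp. It held 1 Halo-Sox2D peak (144889109 to 144889128) and 4 endogenous Sox2 peaks between 144888723 and 144889127, 23.5 to 23.9 kb past the end of Fgf4. The Halo-Sox2D peak and the last endogenous Sox2 peak overlapped by 8 bp. This place is nearer to Fgf15, the next FGF ligand gene of the cluster, from which its peaks were 7.41 to 7.80 kb away. The window of Fgf4 also holds Fgf3, and 10 of its 12 peaks were nearer to Fgf3 or Fgf15 than to Fgf4. They include the Halo-Sox2 peak (144901715 to 144901717), 36.5 kb past Fgf4 and 0.763 kb from Fgf15. Fgf4 itself was thus the nearest gene for 1 Halo-Sox2D and 1 endogenous Sox2 peak. Of all protein-coding genes, of any length, 1.89% had at least the 5 endogenous Sox2 peaks counted here, the most at any of the 7 genes. Of these 5, 4 stood in the place nearer to Fgf15, where 1 called peak (144888735 to 144888737) lay within another (144888723 to 144888737).

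The ligand gene Fgf5 (chromosome 5, 98254184 to 98277033, plus strand) has no other annotated gene within 50 kb, and its window of 122.85 kb held 0 peaks in all 4 libraries.

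The receptor gene Fgfr1 (chromosome 8, 25518759 to 25575718) had 0 Halo-Sox2M, 7 Halo-Sox2D, 2 Halo-Sox2 and 3 endogenous Sox2 peaks. Both receptors are tyrosine kinases of the cell surface. At 1 place inside Fgfr1 peaks of different libraries met: a Halo-Sox2D peak at 25544974 to 25544991, and endogenous Sox2 peaks at 25545085 to 25545095 and 25545146 to 25545155. This place lay 26.2 to 26.4 kb above the lower end of the gene, in a stretch that the annotation also gives to the long non-coding RNA gene Gm31288. The nearest centres of the libraries were 107.5 bp apart, so these peaks did not overlap. The other peaks stood alone. Halo-Sox2 had 1 inside the gene, 4.12 kb above its lower end, and 1 that lay 23.3 kb above the upper end. The remaining endogenous Sox2 peak lay 5.21 kb below the lower end. Of the 7 Halo-Sox2D peaks, 2 lay in the neighbouring gene Letm2, and the Halo-Sox2 peak above Fgfr1 was also nearer to Letm2.

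The receptor gene Fgfr2 (chromosome 7, 130162451 to 130266808, minus strand) had 2 Halo-Sox2M, 1 Halo-Sox2D, 3 Halo-Sox2 and 3 endogenous Sox2 peaks, all inside the gene. At least 2 Halo-Sox2M peaks, the most at any of the 7 genes, were found at 1.07% of all protein-coding genes, of any length. Of the 9 peaks at Fgfr2, 8 stood in 1 place of 196 bp, to which all 4 libraries contributed. The place lay 1.92 to 2.10 kb downstream of the start, at 130264701 to 130264896. The Halo-Sox2M peaks were at 130264831 to 130264837 and 130264889 to 130264896, and the Halo-Sox2D peak was at 130264770 to 130264772. The Halo-Sox2 peaks were at 130264800 to 130264813 and 130264833 to 130264847. The endogenous Sox2 peaks were at 130264701 to 130264716, 130264769 to 130264782 and 130264869 to 130264886. The libraries therefore interleaved along the place, and peaks overlapped in 2 pairs: Halo-Sox2M with Halo-Sox2 by 5 bp, and Halo-Sox2D with endogenous Sox2 by 3 bp. Halo-Sox2 and endogenous Sox2 did not overlap, and their nearest centres were 31 bp apart. The last Halo-Sox2 peak (130266026 to 130266037) lay 0.777 kb downstream of the start, with no peak of another library beside it.

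Places of all 4 libraries were few. Outside the dense bins 23 of 19364 places in the genome had peaks of all 4, and 0.201% of protein-coding genes had such a place in their window when all places were counted. Among these 23 places the one in Fgfr2 was not the richest: 6 had more than its 8 peaks and 15 had fewer, with a median of 6 peaks. Its span equalled the median span of 196 bp. The gene is long (104.358 kb), and the 50 kb on either side of it held no peak at all.

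The response gene Etv4 (chromosome 11, 101769747 to 101785310) had 0 Halo-Sox2M, 3 Halo-Sox2D, 1 Halo-Sox2 and 2 endogenous Sox2 peaks. They stood in 6 separate places, so no place at Etv4 was shared. Halo-Sox2D peaks lay inside the gene 2.84 kb (101772577 to 101772593) and 11.03 kb (101780772 to 101780775) above its lower end. A further Halo-Sox2D peak lay 0.229 kb from the neighbouring gene Dhx8, in the promoter sequence of that gene. The Halo-Sox2 peak (101785256 to 101785258) lay 0.053 kb inside the upper end of Etv4. The endogenous Sox2 peaks (101786079 to 101786086 and 101786764 to 101786778) lay 0.773 and 1.46 kb above that end, in the long non-coding RNA gene Gm39392. The Halo-Sox2 and endogenous Sox2 peaks thus stood near the same end of the gene without meeting within 500 bp.

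The response gene Etv5 (chromosome 16, 22381313 to 22439570, minus strand) had the most peaks of the 7 genes, with 0 of Halo-Sox2M, 11 of Halo-Sox2D, 4 of Halo-Sox2 and 3 of endogenous Sox2. At least 11 Halo-Sox2D peaks were found at 0.356% of protein-coding genes, and at least 4 Halo-Sox2 peaks at 1.84%. Over the 4 libraries, 0.772% had at least the 18 peaks of Etv5. These shares take the highest count among the 7 genes, and they are not matched for window length (158.258 kb at Etv5). Inside the gene 15 of the 18 peaks were found, and the other 3 lay upstream of the start. They formed 12 places, of which 3 were shared. At 22406187 to 22406254, 33.3 to 33.4 kb downstream of the start, 1 Halo-Sox2D peak followed 2 endogenous Sox2 peaks, with the nearest centres 17 bp apart. At 22411780 to 22412021, 27.6 to 27.8 kb downstream, there were 2 Halo-Sox2D peaks and 1 endogenous Sox2 peak, and the Halo-Sox2D peak at 22412007 to 22412021 overlapped the endogenous Sox2 peak at 22412000 to 22412011 by 5 bp. At 22429001 to 22429056, 10.5 to 10.6 kb downstream, a Halo-Sox2D and a Halo-Sox2 peak lay 44.5 bp apart.

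Halo-Sox2 and endogenous Sox2 had no place in common at Etv5. The other Halo-Sox2 peaks lay 36.8 kb downstream of the start, where they had no partner, and as a pair 2.84 and 2.88 kb upstream (22442413 to 22442416 and 22442441 to 22442449). Halo-Sox2D had a peak just upstream of the start, at 22439725 to 22439741, with its centre 163 bp before the first transcribed base. The sequence is shown because it is the one peak at Etv5 that falls in a promoter sequence. These are the 250 bases before the start (RefSeq, GRCm38.p6, chr16:22439571-22439820, minus strand, 5′ to 3′), with the bases of the Halo-Sox2D peak in capitals.

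Etv5 upstream: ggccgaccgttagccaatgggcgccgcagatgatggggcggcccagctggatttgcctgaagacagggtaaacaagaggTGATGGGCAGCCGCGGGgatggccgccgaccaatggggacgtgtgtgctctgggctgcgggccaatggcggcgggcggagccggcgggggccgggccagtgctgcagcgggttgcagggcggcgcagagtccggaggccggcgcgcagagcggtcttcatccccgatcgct

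The response gene Dusp6 (chromosome 10, 99263231 to 99267489, plus strand) had 0 Halo-Sox2M, 3 Halo-Sox2D, 2 Halo-Sox2 and 1 endogenous Sox2 peak. All 6 lay inside this short gene of 4.259 kb, and they made up 2 places, both shared. The first lay at the start, with Halo-Sox2D peaks at 99263261 to 99263264 and 99263289 to 99263291 and a Halo-Sox2 peak at 99263265 to 99263272. The first Halo-Sox2D peak ended on the base before the Halo-Sox2 peak began, 31.5 and 37.5 bp past the start by their centres. The 30 bases that hold both peaks show how closely they adjoin. They are given once for each library (RefSeq, GRCm38.p6, chr10:99263251-99263280, plus strand, 5′ to 3′), with the bases of the named library's peak in capitals.

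Dusp6 start, Halo-Sox2D: gcacagggggTGTGctctcgcggagtccta
Dusp6 start, Halo-Sox2: gcacagggggtgtgCTCTCGCGgagtccta

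The second place at Dusp6 lay 2.35 to 2.37 kb past the start, inside the gene. It held 1 peak each of Halo-Sox2D (99265589 to 99265604), Halo-Sox2 (99265581 to 99265582) and endogenous Sox2 (99265584 to 99265598), all within 24 bp. The Halo-Sox2D and endogenous Sox2 peaks overlapped by 10 bp, and the centre of the narrow Halo-Sox2 peak was 9.5 bp from that of endogenous Sox2. It was the one place at the 7 genes that held Halo-Sox2D, Halo-Sox2 and endogenous Sox2 without Halo-Sox2M.

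**Figure D3:**
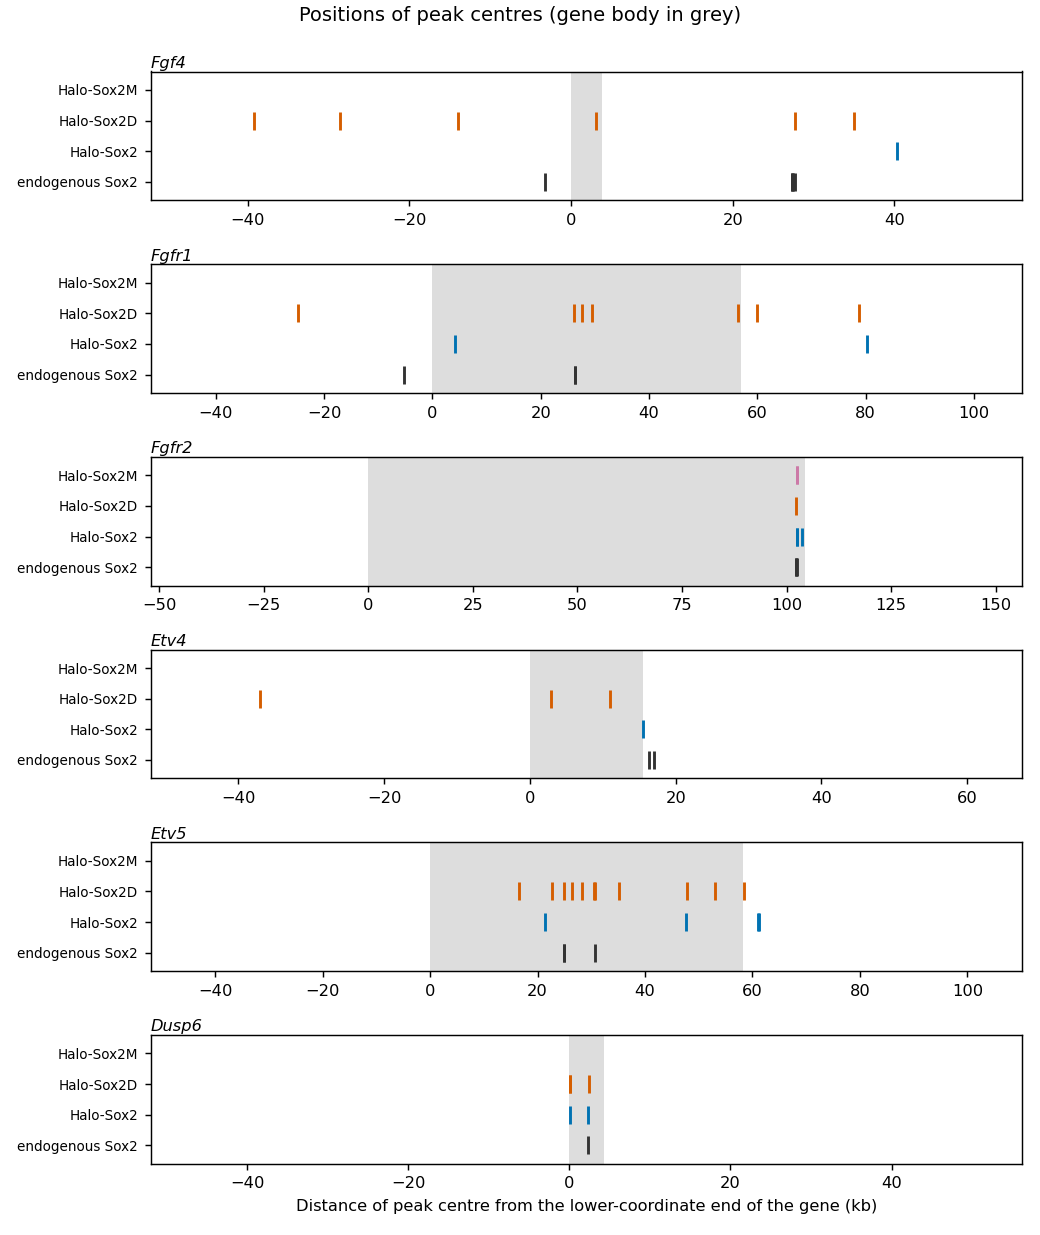
Peak centres of the 4 libraries at the 6 genes with peaks, by distance in kb from the lower-coordinate end of the gene (horizontal axis; gene body in grey, 50 kb on either side). At Fgfr2 all 9 peaks stand near the upper end of a long gene, at Dusp6 all 6 stand inside a short gene, and at Etv5 Halo-Sox2D peaks run through the gene.

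Promoter sequences, from 250 bases before to 50 after a start, were given for 5 of the 7 genes (6 sequences, 2 of them for Etv5), and for neither Fgfr1 nor Etv4. A peak centre of Halo-Sox2D lay in those of Etv5 and Dusp6, and one of Halo-Sox2 in that of Dusp6. Endogenous Sox2 and Halo-Sox2M had none there. Of all 32851 promoter sequences, 0.237% held a Halo-Sox2M centre, 4.46% a Halo-Sox2D centre, 0.734% a Halo-Sox2 centre and 0.472% an endogenous Sox2 centre. Sox2 is known to recognise the letters CATTGT and CTTTGT, and Oct4 the octamer ATGCAAAT. All were searched on both strands, and no match overlapped another. CTTTGT was found in the sequence of Fgf5 and in the second sequence of Etv5, neither of which held a peak, against 18.7% of all promoter sequences. CATTGT (12.6% of all) and ATGCAAAT (1.74% of all) were not in these windows of the members.

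The comparison of Halo-Sox2M with Halo-Sox2 asks what the changed HMG box does to where the protein is found. At the 7 genes Halo-Sox2M had 1 place, that in Fgfr2, which was 1 of the 11 Halo-Sox2 places (9.09%, Wilson interval 1.62 to 37.7%). Over the genome outside dense bins, 2.22% of Halo-Sox2 places held a Halo-Sox2M peak, within that interval. Of all protein-coding genes, 0.845% had a place of both libraries. A place of Halo-Sox2M and Halo-Sox2D was found at 1.21% of them, and one of Halo-Sox2M and endogenous Sox2 at 0.713%, and at the 7 genes that of Fgfr2 was again the one. The 10 other Halo-Sox2 places at the 7 genes had no Halo-Sox2M peak, and the Halo-Sox2M list as a whole is short, so the absence is not particular to these genes.

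The comparison of Halo-Sox2D with Halo-Sox2 asks the same of the lost C-terminal region. Halo-Sox2D had 29 places at the 7 genes and Halo-Sox2 had 11, and 4 were shared: the place of all libraries in Fgfr2, one in Etv5 and both in Dusp6. That was 13.8% of the Halo-Sox2D places (5.50 to 30.6%) and 36.4% of the Halo-Sox2 places (15.2 to 64.6%), and over the genome outside dense bins the shares were 7.88% and 18.1%. Both genome shares lie within the intervals. Of all protein-coding genes, 8.37% had such a place, and 3 of the 7 did. None of the 4 places held a Halo-Sox2D peak that overlapped a Halo-Sox2 peak, with no genome share to set beside this count. The nearest centres of the 2 libraries in these places were 6 to 44.5 bp apart, and peaks are at most 20 bp wide.

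The comparison of Halo-Sox2 with endogenous Sox2 asks whether the tagged protein was found where the untagged one was. Of 11 Halo-Sox2 places and 10 endogenous Sox2 places, 2 were shared, in Fgfr2 and in the body of Dusp6. That was 18.2% of the Halo-Sox2 places (5.14 to 47.7%) and 20% of the endogenous Sox2 places (5.67 to 50.98%), beside 21.0% and 24.0% over the genome, so the sharing here was close to that elsewhere. Of all protein-coding genes, 7.85% had such a place, and 2 of the 7 did. No Halo-Sox2 peak overlapped an endogenous Sox2 peak at these genes, again with no genome share to set beside it.

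Places of Halo-Sox2D and endogenous Sox2 were more frequent. There were 6, at Fgf4, Fgfr1, Fgfr2, Etv5 (2) and Dusp6, which made 20.7% of the 29 Halo-Sox2D places (9.85 to 38.4%) and 60.0% of the 10 endogenous Sox2 places (31.3 to 83.2%). Over the genome outside dense bins the shares were 9.91% and 26.1%, and the second lies below its interval. Of all protein-coding genes 9.40% had such a place, against 5 of the 7. The place counted for Fgf4 is the one nearer to Fgf15. Shares of genes with a place, here and in the comparisons above, are not matched for window length. At 4 of the 6 places, at Fgf4, Fgfr2, Etv5 and Dusp6, a peak of one library overlapped a peak of the other. For this count too no genome share is given, so the pairs of libraries are not contrasted by overlap. Fewer of the endogenous Sox2 places (4 of 10) thus lay apart from Halo-Sox2D than from Halo-Sox2 (8 of 10), and the Halo-Sox2D list is longer than the Halo-Sox2 list. The difference itself, and whether list length accounts for it, was not tested.

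In all, 40 places were found at the 7 genes. Of these, 8 held peaks of 2 or more libraries (20%, 10.5 to 34.8%), against 12.7% outside dense bins over the genome. Places with no peak of another library were 0 of 1 for Halo-Sox2M (0 to 79.3%), 21 of 29 for Halo-Sox2D (72.4%, 54.3 to 85.3%), 7 of 11 for Halo-Sox2 (63.6%, 35.4 to 84.8%) and 4 of 10 for endogenous Sox2 (40%, 16.8 to 68.7%). Over the genome outside dense bins the shares were 74.8, 85.4, 68.2 and 58.9% in the same order, within these intervals except for Halo-Sox2D, where the genome share lay just above. All 8 shared places held Halo-Sox2D, the library with the longest list. Over the genome outside dense bins, 2458 places were shared. Halo-Sox2D had 11847 places there, 10119 of them with no other library, so most shared places of the genome held it too. At the 7 genes, 2 shared places were left without Halo-Sox2D and 4 without endogenous Sox2.

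**Figure D4:**
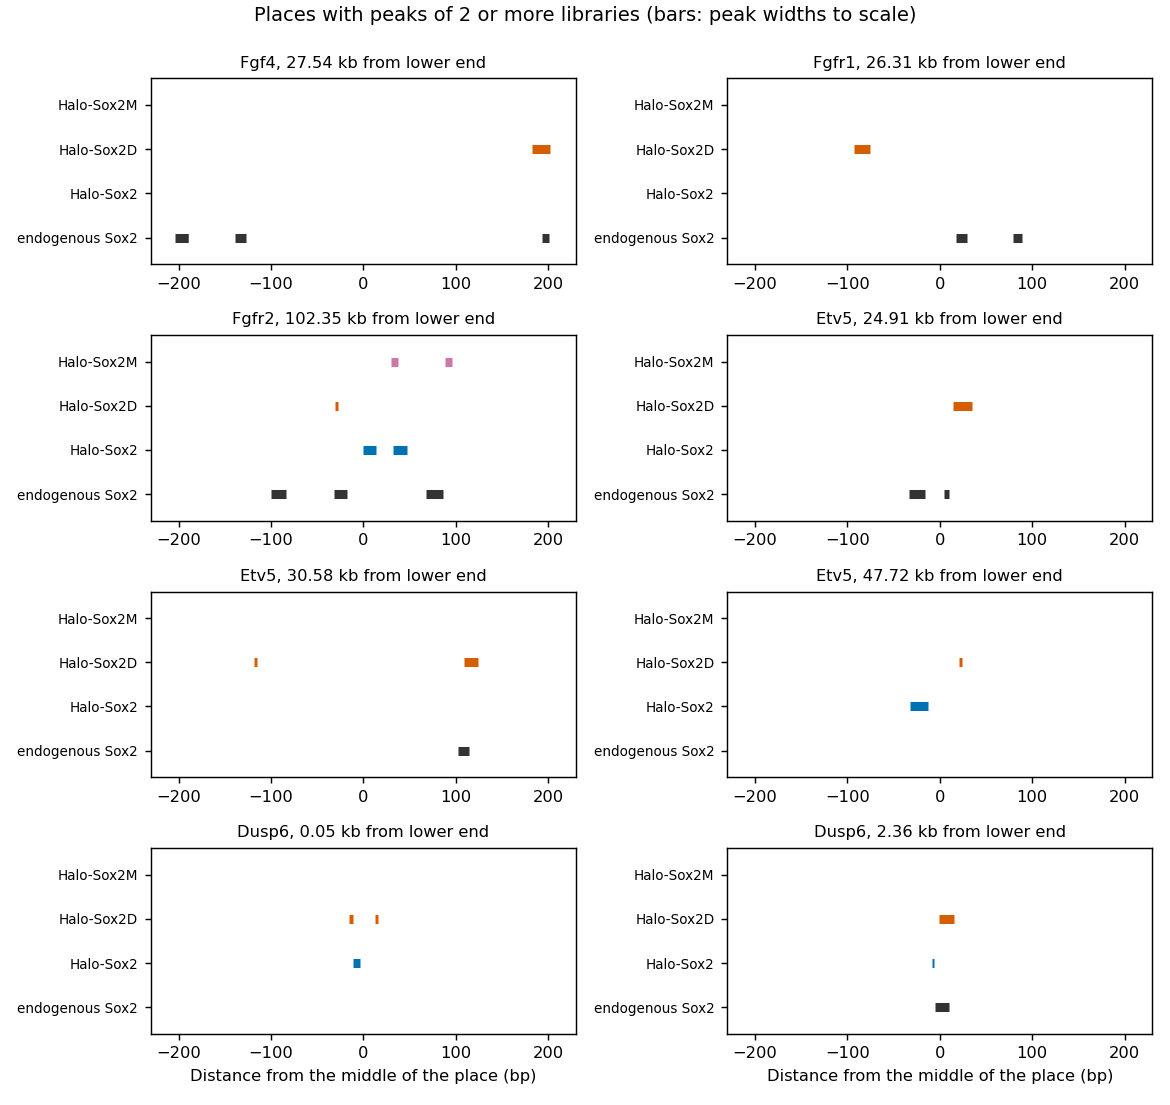
The 8 places at the 7 genes with peaks of 2 or more libraries, each panel with the distance from the middle of the place in bp (horizontal axis) and a row for each library; bars are peaks drawn to their width. All 8 panels have a Halo-Sox2D bar, and the Fgfr2 panel has bars in all 4 rows.

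A wider list of 54 other genes of the pathway, also chosen with earlier results of these data known, was described in the same way. Halo-Sox2M had a peak at 7 of these genes (13.0%, 6.42 to 24.4%), Halo-Sox2D at 44 (81.5%, 69.2 to 89.6%), Halo-Sox2 at 24 (44.4%, 32.0 to 57.6%) and endogenous Sox2 at 31 (57.4%, 44.2 to 69.7%). The shares over all protein-coding genes, given above, were below these intervals for Halo-Sox2M, Halo-Sox2D and endogenous Sox2, and within that of Halo-Sox2. The 54 include Fgf3 and Fgf15, whose windows overlap that of Fgf4, so peaks counted for Fgf4 are counted again here. The median numbers of peaks were 0, 2.5, 0 and 1 in the same order, against 0, 1, 0 and 0 over all genes. By role, Halo-Sox2D peaks were found at 7 of 11 ligand genes, 3 of 3 receptor genes, 17 of 18 genes of the signal's transducers, 8 of 12 feedback genes and 9 of 10 response genes. Endogenous Sox2 peaks were found at 5, 1, 9, 9 and 7 of them in the same order, and Halo-Sox2 peaks at 4, 1, 8, 7 and 4. The feedback genes, which encode proteins that damp the signal, had the largest share for endogenous Sox2 (75.0%, 46.8 to 91.1%), with an interval that overlaps those of the other roles.

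The listed genes with most peaks were Spry2, with 2 Halo-Sox2M, 9 Halo-Sox2D, 11 Halo-Sox2 and 17 endogenous Sox2 peaks, and Spry4, with 1, 10, 4 and 5 in the same order. Both encode Sprouty proteins, which inhibit the pathway below the receptor. They were followed, with 14 peaks each, by the ligand gene Fgf1, by Il17rd, which encodes the membrane antagonist Sef, and by Spred2, which encodes an inhibitor of Raf activation. Peaks of all 4 libraries were found in the windows of 4 of the 54 genes (Spry2, Spry4, Fgf1 and the ligand gene Fgf17), as they were at Fgfr2, against 1.77% of all protein-coding genes. No peak was found at 6 of the 54, among them Fgf2 and Dusp9, as at Fgf5. That is a smaller share than the 31.1% of all protein-coding genes with no peak in any library.

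**Figure D5:**
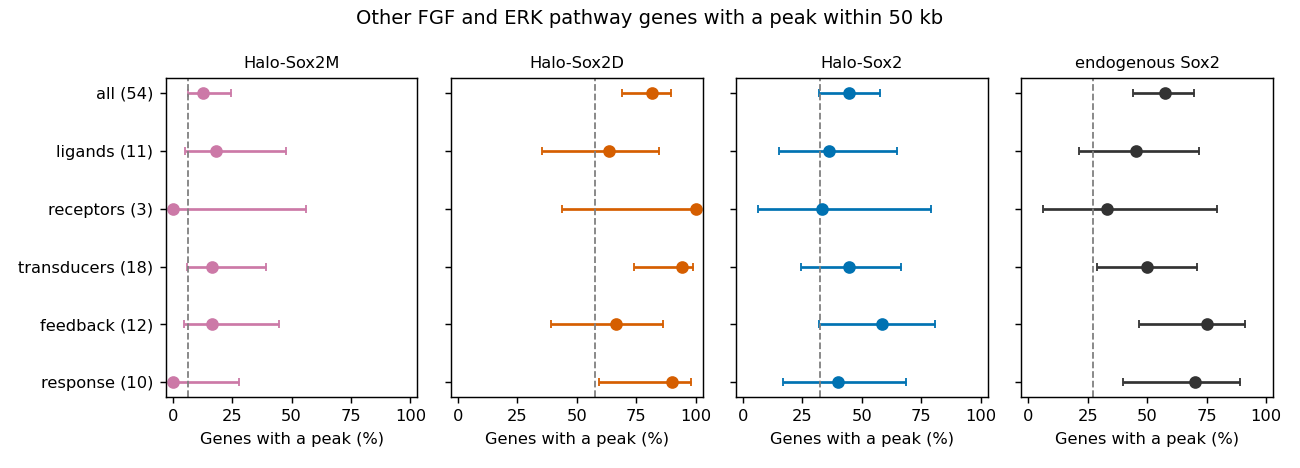
Share of the 54 other pathway genes, and of each role, with a peak within 50 kb (horizontal axis, percent; points with 95% Wilson intervals for counting error; number of genes in brackets), in a panel for each library. Dashed lines mark the share of all protein-coding genes (6.37, 57.7, 32.3 and 27.4% from left to right). Over all 54 genes the points of Halo-Sox2D (81.5%) and endogenous Sox2 (57.4%) stand right of their lines with intervals that do not reach them.

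By the numbers of peaks in the 4 libraries, the listed gene most like Fgf4 was Fgf15, with the same 0 Halo-Sox2M, 6 Halo-Sox2D, 1 Halo-Sox2 and 5 endogenous Sox2 peaks. These are largely the same peaks, because the windows of these neighbours overlap. The sum of the absolute differences in peak number over the 4 libraries was 1 for Fgfr1 with Spred1, for Etv4 with Hras and equally with Myc, and for Dusp6 with Fgfrl1. The smallest sum was 4 for Fgfr2, reached by Elk3 and Nras, and 4 for Etv5, reached by Il17rd, Spred2 and Spry4.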

How the data were processed

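The data are 4 peak lists from ChIP-exo on the D3 line of mouse embryonic stem cells, and by the labels each library is its own group. Bowtie2 and the mm10 build were used, per the submitters' processing notes. Not given in the sources used here: peak caller, threshold and read filters. The deposited lists give chromosome, start and end, and no score. Starts were taken as counted from 0 and are printed counted from 1.

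Gene positions, 300-base promoter sequences and strand (where a promoter sequence gives it) came from RefSeq GRCm38.p6, whose chromosomes have mm10 coordinates. Peak centres in a gene body or within 50 kb were counted, and centres within 500 bp were joined into places over all libraries, so that 1 library's peaks can link those of others. Python 3.11.15, numpy 2.4.6, pandas 2.3.3 and scipy 1.17.1 were used. Shares carry Wilson and counts exact Poisson intervals (95%). The counting was tested on simulated data. Dense bins are the 11 placed bins of 100 kb with 15 or more peaks of a library; mitochondrial and unplaced sequence was left out with them.

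The 7 genes, the list of 54 genes and the rules were chosen with earlier results of these data known. Named were the 7 genes, the 5 listed genes with most peaks, those with peaks of all 4 libraries and the gene most like each member (ties in alphabetical order); the tied Myc and Nras, and Fgf2 and Dusp9, were named after their values were seen. The alternatives were windows of 20 and 100 kb, the nearest gene, dense bins left out, peaks within 50 bp counted once, joining within 50, 200 or 1000 bp or by overlap of at least 1 bp, and, added after the data were seen, each library left out.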

Additional observations from a re-analysis of the deposited data

How the results depend on the processing

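Of 60 values under the alternatives, 55 stayed within 1.5 times of the value reported. Those that moved further came from the way places were joined or from a library left out. Some of the 55 could not have moved. None of the peaks counted lay in a dense bin, so leaving these bins out could change no value. With the wider window a gene count of 6 could rise only to 7. By overlap of at least 1 bp, 5 places held peaks of 2 or more libraries (8 when centres were joined within 500 bp), and Halo-Sox2D with Halo-Sox2 shared 0 places (4) and Halo-Sox2 with endogenous Sox2 shared 0 (2). With each library left out in turn, the places with 2 or more libraries numbered 2 (without Halo-Sox2D) to 8 (without Halo-Sox2M), with 4 without endogenous Sox2. The numbers of genes with a peak were unchanged for Halo-Sox2M, Halo-Sox2D and endogenous Sox2 under windows of 20 and 100 kb, by nearest gene and outside dense bins; for Halo-Sox2 the number was 5 at 20 kb and by nearest gene, against 6. By nearest gene, Halo-Sox2D kept 23 of its 31 peaks. No paired analysis was possible because each group has 1 library. Depth is unknown, so a missing peak is no sign that the protein was absent.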
